A study of Mus musculus with 4 samples.

Results

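Genes of fibroblast growth factor (FGF) signalling were followed in P19, an embryonal carcinoma line of the mouse whose cells differentiate in retinoic acid. They comprised every probe set whose single annotated symbol was Fgf or Fgfr followed by digits, Fgfrl1, Spry1 to Spry4, Spred1 to Spred3, Dusp6, Etv4 or Etv5. This gave 41 of the 41345 probe sets on the arrays and 37 of the 22180 genes: 18 secreted ligands, 4 intracellular FGF-like proteins, 5 receptors and 10 feedback inhibitors or Etv transcription factors. Dusp6, Etv5, Fgf10 and Fgf15 had 2 probe sets, and the one with the higher mean stands for the gene.

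There were 4 arrays, 1 for each condition. Wild-type P19 cells and a P19 clone with the stable integrates pBI-EGFP-FLAG-mCtcfl and pTA-N, here the Ctcfl line, were each measured undifferentiated, with ethanol as vehicle, and after 4 days in 10 µM retinoic acid. The vectors form a Tet-Off system, in which doxycycline holds the Ctcfl transgene silent. The Ctcfl line was kept in 2 µg/ml doxycycline and had been without it for 2 days before extraction. For wild-type cells the labels conflict, giving ordinary medium in one place and 2 µg/ml doxycycline in another. The Ctcfl line is 1 clone, so its integration sites, clonal origin and Ctcfl level cannot be told apart. If the wild-type cells had doxycycline, its absence in the Ctcfl line cannot be told apart from these either, in any difference between the lines.

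Secreted FGFs bind receptor tyrosine kinases of the Fgfr family together with heparan sulfate, and the receptors signal through Ras and the kinase ERK. ERK signalling switches on its own brakes, among them the Sprouty and Spred proteins and the phosphatase Dusp6, together with the ETS transcription factors Etv4 and Etv5, so these genes are widely read as a measure of pathway output. In the early embryo and in pluripotent cells, Fgf4 acting through ERK promotes exit from the naive state, Fgf5 marks the primed epiblast, and Fgf8 and Fgf15 pattern the later embryo.

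Upstream sequences are shown for some of the members that the results below turn on, so that their starts can be compared. Spry4, Fgf15 and Etv4, which also fell with retinoic acid, are not among them. Shown are those of Fgf4, Etv5 and Spred3, which fell with retinoic acid, and of Fgfrl1, which rose. Also shown are Spry2, which was lower in both lines but did not pass the test, and Fgf5 and Fgfr2, which differed between the undifferentiated lines. Each is the 250 bases before the annotated start from RefSeq on GRCm38.p6, written 5′ to 3′ on the gene's strand. For Etv5, which has 2 starts in the table, it is the one listed before the other. Capitals mark GGGCGG (the GC box bound by Sp factors) and CGGAAG (the core of an ETS site) or their reverse complements.
Fgf4 (chr7:144861136-144861385, plus strand): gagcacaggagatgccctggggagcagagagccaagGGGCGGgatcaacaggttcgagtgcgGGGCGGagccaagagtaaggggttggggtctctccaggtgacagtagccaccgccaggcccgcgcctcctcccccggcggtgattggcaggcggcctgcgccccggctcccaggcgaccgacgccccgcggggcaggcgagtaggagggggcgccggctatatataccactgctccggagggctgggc
Etv5 (chr16:22439571-22439820, minus strand): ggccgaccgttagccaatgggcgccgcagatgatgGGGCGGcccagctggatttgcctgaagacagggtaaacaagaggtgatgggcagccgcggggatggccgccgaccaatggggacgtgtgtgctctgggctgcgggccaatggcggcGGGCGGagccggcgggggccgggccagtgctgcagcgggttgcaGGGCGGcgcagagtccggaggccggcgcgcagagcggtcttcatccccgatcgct
Spred3 (chr7:29168648-29168897, minus strand): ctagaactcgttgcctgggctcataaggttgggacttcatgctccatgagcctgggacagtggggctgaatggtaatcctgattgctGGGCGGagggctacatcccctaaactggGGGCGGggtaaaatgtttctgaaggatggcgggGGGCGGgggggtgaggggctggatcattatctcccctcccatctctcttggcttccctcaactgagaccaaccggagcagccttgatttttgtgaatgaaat
Spry2 (chr14:105896820-105897069, minus strand): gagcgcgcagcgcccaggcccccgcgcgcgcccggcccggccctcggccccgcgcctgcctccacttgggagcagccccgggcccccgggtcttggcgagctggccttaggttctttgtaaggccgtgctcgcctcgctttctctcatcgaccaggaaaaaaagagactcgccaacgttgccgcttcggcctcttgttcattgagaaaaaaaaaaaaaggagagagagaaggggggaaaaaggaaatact
Fgfrl1 (chr5:108693979-108694228, plus strand): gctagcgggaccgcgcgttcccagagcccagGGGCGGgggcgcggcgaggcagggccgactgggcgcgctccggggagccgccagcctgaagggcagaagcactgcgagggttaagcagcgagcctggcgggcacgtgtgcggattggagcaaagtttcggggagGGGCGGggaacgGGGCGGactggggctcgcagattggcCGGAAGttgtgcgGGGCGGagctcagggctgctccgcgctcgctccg
Fgf5 (chr5:98253934-98254183, plus strand): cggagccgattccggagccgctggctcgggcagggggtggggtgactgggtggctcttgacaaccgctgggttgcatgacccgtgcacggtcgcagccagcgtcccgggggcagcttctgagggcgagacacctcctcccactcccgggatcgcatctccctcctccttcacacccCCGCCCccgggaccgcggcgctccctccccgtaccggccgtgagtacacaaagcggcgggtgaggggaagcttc
Fgfr2 (chr7:130266809-130267058, minus strand): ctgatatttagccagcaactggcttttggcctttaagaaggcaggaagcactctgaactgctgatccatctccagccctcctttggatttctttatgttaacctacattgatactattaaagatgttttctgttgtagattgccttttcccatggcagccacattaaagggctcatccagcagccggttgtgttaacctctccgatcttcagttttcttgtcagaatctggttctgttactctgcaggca

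The windows differed in these letters. Spred3 and Etv5 each held 3 GC boxes, Fgf4 held 2 and Spry2 held 0, and none of these 4 windows held the ETS core. Spry2 missed the threshold, but its average difference with retinoic acid was larger than that of Spred3 (log2 -1.27 against -1.01). These counts therefore do not compare genes that fell with genes that did not. Fgfrl1 held 4 GC boxes and 1 ETS core, Fgf5 held 1 GC box, and Fgfr2 held 0 of either. The Fgfr2 window had a GC content of 44% and that of Fgfrl1 one of 73.6%. RefSeq promoters were at hand for 27 of the 37 members, with 35 starts. GGGCGG on either strand was in 23 of the 35 windows (65.7%), against 32.7% of the 32851 windows of all genes. CGGAAG was in 7 (20%, against 13.6%), and the nuclear receptor core AGGTCA in 3 (8.57%, against 14%). Neither the direct repeat of AGGTCA with 5 bases between, to which retinoic acid receptors bind, nor the octamer ATTTGCAT was in any of the 35, and they were in 0.00913% and 1.6% of all windows. TATAAA was in 1 (2.86%, against 12.4%). All motifs were searched on both strands, and an AGGTCA inside the direct repeat also counts as a single one. A match describes letters in these windows and is not a measured site.

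The arrays were alike in scale, with medians of log2 6.95 to 6.96. The overexpressed gene followed the labels, since Ctcfl was 5.85-fold higher in the Ctcfl line undifferentiated and 5.36-fold higher in retinoic acid. Of 10 embryonal carcinoma markers, 5 fell with retinoic acid in the limma fit described below, among them Pou5f1 (2.99-fold, adjusted p = 0.00743) and Nanog (3.92-fold, adjusted p = 0.00513), and 0 rose. Sox2 was lower by a factor of 1.25 and did not pass (adjusted p = 0.27). The mean log2 signal of this list was 10.27 and 10.54 in undifferentiated wild-type and Ctcfl-line cells, and 8.67 and 8.90 after retinoic acid. All 7 measured retinoic acid response markers rose, among them Rarb (adjusted p = 0.000402), from log2 6.63 and 6.54 undifferentiated, below the background level described below, to 10.09 and 9.77. Some markers of other cell types also passed, where 4.21% of all genes compared rose and 2.44% fell. Of 8 neural progenitor markers 4 rose and 0 fell, and of 8 mesenchyme markers 2 rose and 0 fell. Of 7 endoderm markers 1 rose and 0 fell. Of 7 streak and mesoderm markers 1 rose and 1 fell, and of 6 fibroblast markers 1 rose and 1 fell. Between the undifferentiated and the retinoic acid arrays, mean log2 signals went from 7.60 and 7.73 to 8.35 and 8.38 for the neural list, and from 7.44 and 7.36 to 8.39 and 7.74 for the endoderm list. The mesenchyme list went from 8.09 and 7.95 to 8.66 and 8.50, the streak list from 7.20 and 7.60 to 7.44 and 7.43, and the fibroblast list from 6.56 and 6.38 to 6.64 and 6.42. The part of these cell types in the differences below was not tested, and in such bulk RNA fewer cells of a type and less RNA per cell cannot be told apart.

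All 37 members reached log2 6 on at least 1 array, the limit below which a gene was left out, and were compared with 18310 genes in all. Clear signal was less common. As a guide to background, the 95th percentile of 1108 olfactory receptor probe sets lay between log2 6.82 and 6.95 on the 4 arrays. Above it on 4 of 4 arrays were 26 members, including all 5 receptors and all 10 feedback inhibitors and Etv factors, and 4 were above it on 1 to 3 arrays (Fgf9, Fgf10, Fgf14 and Fgf21). The remaining 7 were above it on 0 arrays: Fgf2, Fgf6, Fgf7, Fgf12, Fgf16, Fgf20 and Fgf23, with signals between log2 5.72 (Fgf6) and 6.87 (Fgf2). Differences of these 11 genes were therefore not clearly distinguishable from background at this signal.

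**Figure D1:**
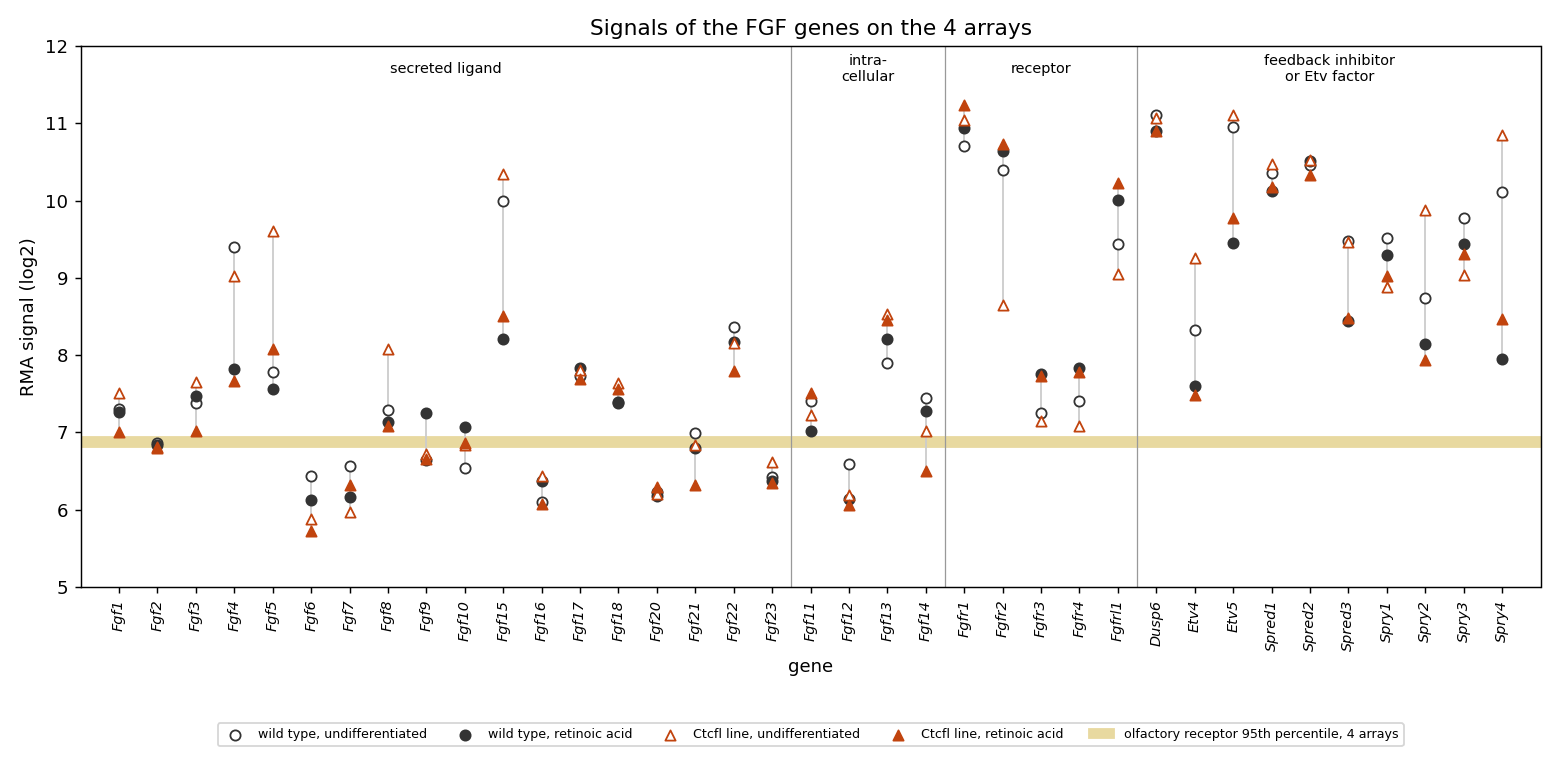
Log2 RMA signal of each of the 37 FGF genes (x axis) on the 4 arrays (y axis), 1 symbol per array, with a grey line from the lowest to the highest and a band at the olfactory receptor 95th percentile, between log2 6.82 and 6.95. Symbols of a gene may be compared with each other but not between genes; Spry4, Fgf15 and Fgf5 have wide spans, and the undifferentiated Ctcfl line stands apart for Fgfr2 at 8.65.

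Retinoic acid was compared with vehicle in each line, to ask which FGF genes follow differentiation. A pair of ligands and 4 feedback or Etv genes fell and a receptor-like gene rose. Averaged over the lines in an additive limma model of treatment and line, 6 of 37 members fell (16.2%), where 2.44% of all 18310 genes did, and 1 rose (2.7%), where 4.21% did. Spry4, Fgf15, Fgf4, Etv5, Spred3 and Etv4 fell and Fgfrl1 rose, and the other 30 did not pass. The median effect was log2 -0.16 over the members and -0.05 over all genes. Members were lower in both lines in 20 cases and higher in both in 6, against 7264 and 5369 of all 18310 genes. With 1 residual degree of freedom, the fit takes unequal responses of the lines as error. It joins this to a variance pooled over all genes compared, which has 5.49 prior degrees of freedom. The SEs and p-values therefore do not measure the spread of each gene alone. The p-values, adjusted by Benjamini-Hochberg over all genes compared, rest on these 2 lines only.

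Among the ligands, Fgf15 and Fgf4 fell. Fgf15, the mouse counterpart of human FGF19 and a signal of the embryonic midbrain and later of the gut (probe set 17485443), had log2 signals of 9.99 in undifferentiated wild-type cells, 10.34 in the undifferentiated Ctcfl line, 8.21 in wild-type cells in retinoic acid and 8.51 in the Ctcfl line in retinoic acid. Both retinoic acid arrays lay below both undifferentiated ones, and the fall was 3.51-fold (limma effect log2 -1.81 ± 0.15, SE, with adjusted p = 0.00192). Its other probe set gave smaller differences, of log2 -0.52 and -0.42, at signals of 6.48 to 7.0 near the background guide.

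Fgf4, the autocrine ligand of pluripotent cells (probe set 17485437), read 9.40 and 9.03 in undifferentiated wild-type and Ctcfl-line cells and 7.82 and 7.66 in retinoic acid. It fell 2.77-fold (limma effect log2 -1.47 ± 0.15, SE, with adjusted p = 0.00463), and the groups did not overlap. In RefSeq on GRCm38.p6, Fgf3, Fgf4 and Fgf15 are neighbours on chromosome 7 with 0 protein-coding genes between them. Fgf3, a ligand of the inner ear and tail bud, differed by log2 0.10 in wild-type and -0.63 in Ctcfl-line cells, and did not pass (adjusted p = 0.47 in limma).

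Fgf5 and Fgf8 were lower with retinoic acid mainly in the Ctcfl line. Fgf5 (probe set 17439517) read 7.78 undifferentiated and 7.56 in retinoic acid in the wild type, and 9.61 and 8.08 in the Ctcfl line. It thus differed by log2 -0.22 and -1.52, and the average did not pass (adjusted p = 0.143 in limma). Fgf8, a ligand of the gastrulating embryo and of the brain's signalling centres, read 7.29 and 7.13 in the wild type and 8.07 and 7.08 in the Ctcfl line, with an adjusted p of 0.178. For both genes the undifferentiated Ctcfl line was the array that stood apart.

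The other 14 secreted ligands had smaller average effects. Fgf9 and Fgf10, ligands of mesenchyme and of budding organs, differed by log2 0.61 and 0.53 in the wild type, and by -0.06 and 0.03 in the Ctcfl line, near background. Fgf17 and Fgf18, of the same subfamily as Fgf8, spanned only log2 0.15 and 0.25 over the 4 arrays, at signals of 7.69 to 7.83 and 7.38 to 7.63. Fgf2, the ligand often added to stem cell medium, spanned 0.08, and Fgf20 and Fgf23 spanned 0.12 and 0.26, all below the background guide. Fgf1, which binds all of the kinase receptors, differed by log2 -0.03 in wild-type and -0.51 in Ctcfl-line cells. Fgf22, a ligand of synapse formation, differed by -0.18 and -0.35, and Fgf21, a hormone of fasting, by -0.18 and -0.51. Over all 18 secreted ligands the median difference was log2 -0.06 in wild-type and -0.31 in Ctcfl-line cells.

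The 4 intracellular members, Fgf11 to Fgf14, are not secreted and bind sodium channels rather than receptors. None passed. Fgf13 read 7.90 and 8.21 in the wild type and 8.54 and 8.45 in the Ctcfl line, and Fgf11 read 7.41 and 7.02, then 7.23 and 7.51, so neither moved in 1 direction with retinoic acid. Fgf14 differed by log2 -0.17 in wild-type and -0.51 in Ctcfl-line cells, the latter down to a signal below the background guide. Fgf12 differed by -0.44 and -0.13 at background signals.

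Receptor genes were higher in retinoic acid in both lines, 5 of 5, with a median difference of log2 0.42 in wild-type and 0.71 in Ctcfl-line cells, although 1 of the 5 passed. Of all 18310 genes, 5369 were higher in both lines, and the medians of all genes were log2 -0.04 and -0.05. Fgfrl1, a receptor-like protein without the kinase domain (probe set 17440312), read 9.44 and 10.01 in the wild type and 9.05 and 10.23 in the Ctcfl line. It rose 1.84-fold (limma effect log2 0.88 ± 0.19, SE, with adjusted p = 0.0466), close to the threshold. The call was lost, at adjusted p between 0.0502 and 0.0595, without the filter on low signals, with probe sets averaged per gene over the whole table and with a trended variance prior.

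The kinase receptors did not pass. Fgfr3 read 7.26 and 7.14 undifferentiated and 7.75 and 7.72 in retinoic acid, in the order wild type and Ctcfl line (adjusted p = 0.0893 in limma). Fgfr4 read 7.41 and 7.08, then 7.83 and 7.78 (adjusted p = 0.0928). In both genes the retinoic acid arrays lay above the undifferentiated ones. Fgfr1, the main receptor of the epiblast, read 10.71 and 11.04, then 10.94 and 11.24, and here the groups overlapped. Fgfr2 (probe set 17496947), the receptor of early extraembryonic and epithelial tissue, was higher by log2 0.24 in wild-type and 2.07 in Ctcfl-line cells (adjusted p = 0.14).

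Of the 10 feedback inhibitors and Etv factors, 4 fell, 0 rose and 6 did not pass, where 2.44% of all genes fell and 4.21% rose. Spry4, a Sprouty inhibitor of receptor signalling to ERK (probe set 17353957), read 10.11 and 10.84 undifferentiated and 7.95 and 8.47 in retinoic acid, wild type before Ctcfl line. It fell 4.81-fold (limma effect log2 -2.26 ± 0.15, SE, with adjusted p = 0.00111), the largest fall of the 37 members. Etv5, an ETS factor induced by FGF (probe set 17329298), read 10.95 and 11.11, then 9.45 and 9.77, and fell 2.68-fold (limma effect log2 -1.42 ± 0.15, SE, with adjusted p = 0.00486). Its other probe set differed by log2 -0.61 and -0.68.

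Spred3, a Spred protein that restrains Ras signalling (probe set 17488735), read 9.48 and 9.47, then 8.44 and 8.48, so that the lines were close to each other in both states. It fell 2.02-fold (limma effect log2 -1.01 ± 0.15, SE, with adjusted p = 0.0134). Etv4, the relative of Etv5 (probe set 17269954), read 8.32 and 9.25, then 7.61 and 7.49, and fell 2.36-fold (limma effect log2 -1.24 ± 0.25, SE, with adjusted p = 0.0387). Without the filter on low signals Etv4 was past the threshold no longer (adjusted p = 0.0508). Spry2 (probe set 17309340) read 8.73 and 9.88, then 8.14 and 7.94, and its average difference, 2.41-fold lower, missed the threshold (adjusted p = 0.0625), while it passed with quantile normalization of the arrays (0.0354).

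The other feedback genes did not pass. Dusp6, the phosphatase that inactivates ERK, read 11.11 and 11.06, then 10.89 and 10.90, a difference of log2 -0.22 in wild-type and -0.17 in Ctcfl-line cells (adjusted p = 0.467 in limma). Its second probe set, at signals of 5.38 to 5.8 below the filter, gave differences of the other sign, 0.35 and 0.41. Spred1 differed by -0.24 and -0.31 and Spred2 by 0.04 and -0.19. Spry1 differed by -0.23 and 0.13 and Spry3 by -0.33 and 0.27, so that the 2 lines had opposite signs in each.

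**Figure D2:**
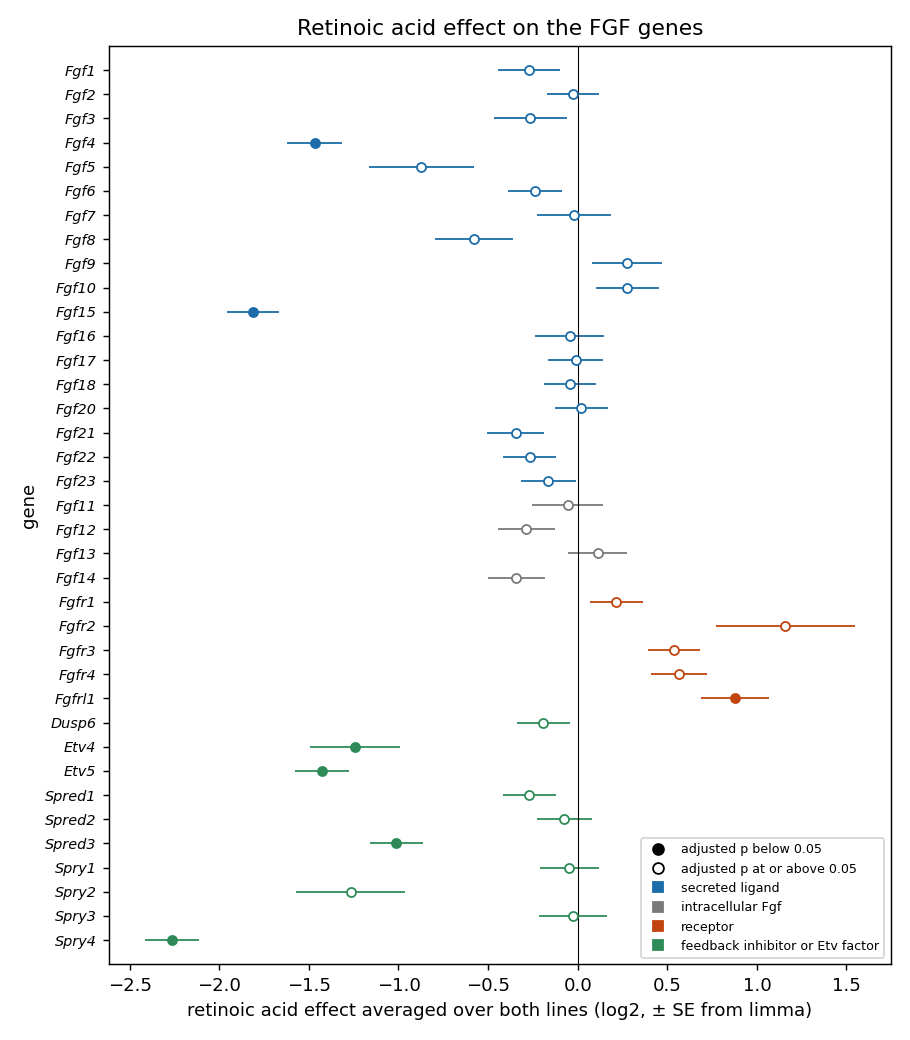
Retinoic acid effect on each of the 37 FGF genes (y axis), as the log2 difference averaged over both lines with its SE from limma (x axis); filled symbols have an adjusted p below 0.05 and colours mark the role. Spry4 lies at -2.26 and Fgf15 at -1.81, all 5 receptors lie above 0, and of these Fgfrl1 is the filled one.

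Within single lines, differences of 2 arrays were counted at 2-fold without a test. In wild-type cells 5 of 37 members were at least 2-fold lower (13.5%, where 2.62% of all genes were) and 0 were at least 2-fold higher (2.58% of all genes): Spry4, Fgf15, Fgf4, Etv5 and Spred3, by 4.47-fold, 3.45-fold, 2.97-fold, 2.85-fold and 2.05-fold. In the Ctcfl line 7 were at least 2-fold lower (18.9%, where 1.5% of all genes were). They were Spry4, Spry2, Fgf15, Etv4, Fgf5, Fgf4 and Etv5, at 5.17-fold, 3.85-fold, 3.57-fold, 3.39-fold, 2.87-fold, 2.57-fold and 2.53-fold. Fgfr2 and Fgfrl1 were at least 2-fold higher there, by 4.21-fold and 2.27-fold (5.41%, where 3.21% of all genes were). Where a gene had several probe sets, their values of these differences had an SD of log2 0.30 in wild-type and 0.33 in Ctcfl-line cells, from 874 genes. This SD describes probe sets read on the same arrays. It leaves out the variation between cultures and between arrays, which single arrays do not give, so a difference above it may still lie within that variation. With a 3-fold threshold the counts became 2 lower in wild-type cells, and 4 lower and 1 higher in the Ctcfl line. Spred3 was 2.05-fold lower in wild-type and 1.98-fold lower in Ctcfl-line cells, so the threshold parts values that differ by less than the SD between probe sets, and with quantile normalization 9 members, in place of 7, were lower by 2-fold or more in the latter.

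**Figure D3:**
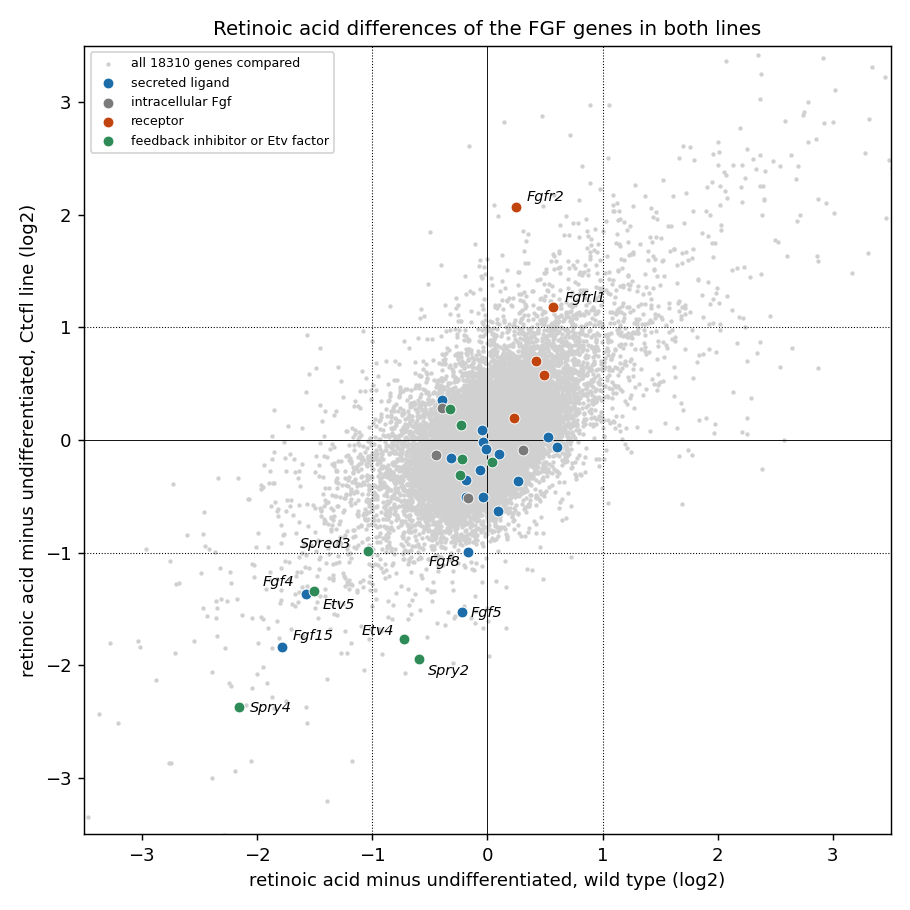
Retinoic acid minus undifferentiated signal (log2) in wild-type cells (x axis) and in the Ctcfl line (y axis) for the 37 FGF genes, coloured by role, over all 18310 genes compared in grey; dotted lines mark 2-fold and 28 genes lie beyond the axes. Spry4, Fgf15, Fgf4 and Etv5 lie beyond 2-fold in both lines, and Fgfr2, Fgfrl1, Fgf5, Etv4 and Spry2 lie beyond it on the y axis and within it on the x axis. Spred3 lies at the line on both axes, at -1.04 and -0.99.

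The Ctcfl line was compared with wild type in each state, to ask whether FGF genes differ with the Ctcfl transgene. Undifferentiated cells of the line had more signal for Fgf5 and Spry2 and less for Fgfr2, and after retinoic acid no member was 2-fold apart. Undifferentiated, 3 of 37 members were at least 2-fold apart (8.11%, where 1.82% of all genes were). In retinoic acid 0 of 37 were, where 1.23% of all genes were. No member passed the limma fit for the line averaged over both states, in which 8 of 18310 genes (0.0437%) were called; 6 members had an unadjusted p under 0.05 (16.2%, where 9.81% of all genes did), namely Fgf5, Fgf6, Fgf13, Fgf14, Spry1 and Spry4. Each of these was on the same side in both states, which the fit favours since it takes the difference between the states as its error. An effect present in 1 state only enters this fit diluted, as part of the average of both states, and also adds to the error. It enters the retinoic acid average too. For Fgfr2, that average was log2 1.16, where the wild type alone gave 0.24.

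Fgf5, a marker of the primed epiblast, was 3.54-fold higher in the Ctcfl line undifferentiated (log2 9.61 against 7.78) and 1.44-fold higher in retinoic acid (8.08 against 7.56). The average was log2 1.18 ± 0.29 (SE, adjusted p = 0.351 in limma). Spry4 was higher by log2 0.73 undifferentiated and 0.52 in retinoic acid (adjusted p = 0.341). Fgf13 was higher by 0.64 and 0.24, while Fgf14 was lower by log2 differences of -0.43 and -0.77 and Spry1 by -0.63 and -0.27. The differences of Fgf6, -0.55 and -0.40, lay at background signals. Fgf14 read 6.50 in the Ctcfl line in retinoic acid, below the background guide, so its difference in that state is not exact.

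Other members differed in undifferentiated cells and were close in retinoic acid. Fgfr2 was 3.34-fold lower in the undifferentiated Ctcfl line (8.65 against 10.39), whereas its other 3 arrays read 10.39 to 10.73. Spry2 was 2.22-fold higher (9.88 against 8.73), Etv4 1.90-fold higher (9.25 against 8.32) and Fgf8 1.72-fold higher (8.07 against 7.29). In retinoic acid their line differences were log2 0.09, -0.20, -0.12 and -0.05 in the same order. The SD between probe sets of 1 gene was log2 0.26 for the undifferentiated line difference and 0.23 for that in retinoic acid.

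Marker genes on the undifferentiated Ctcfl-line array, on which these values rest, differed from wild type in both directions. Of the 7 streak and mesoderm markers 4 were higher and 3 lower, with a median of log2 0.16. The largest differences were those of Eomes at log2 1.41 and Mixl1 at 0.80 (chosen here after their values were seen), and in retinoic acid these were 0.86 and 0.09. Of the 10 embryonal carcinoma markers 5 were higher and 5 lower, with a median of log2 0.06. Their range was from -0.26 for Zfp42 to 1.55 for Tdgf1, both named after their values were seen. Nanog was higher by log2 0.80 undifferentiated and by 1.58 in retinoic acid, so its difference was not limited to the undifferentiated array. The part of these cell states in the Fgf5, Fgf8, Fgfr2, Etv4 and Spry2 values was not tested.

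**Figure D4:**
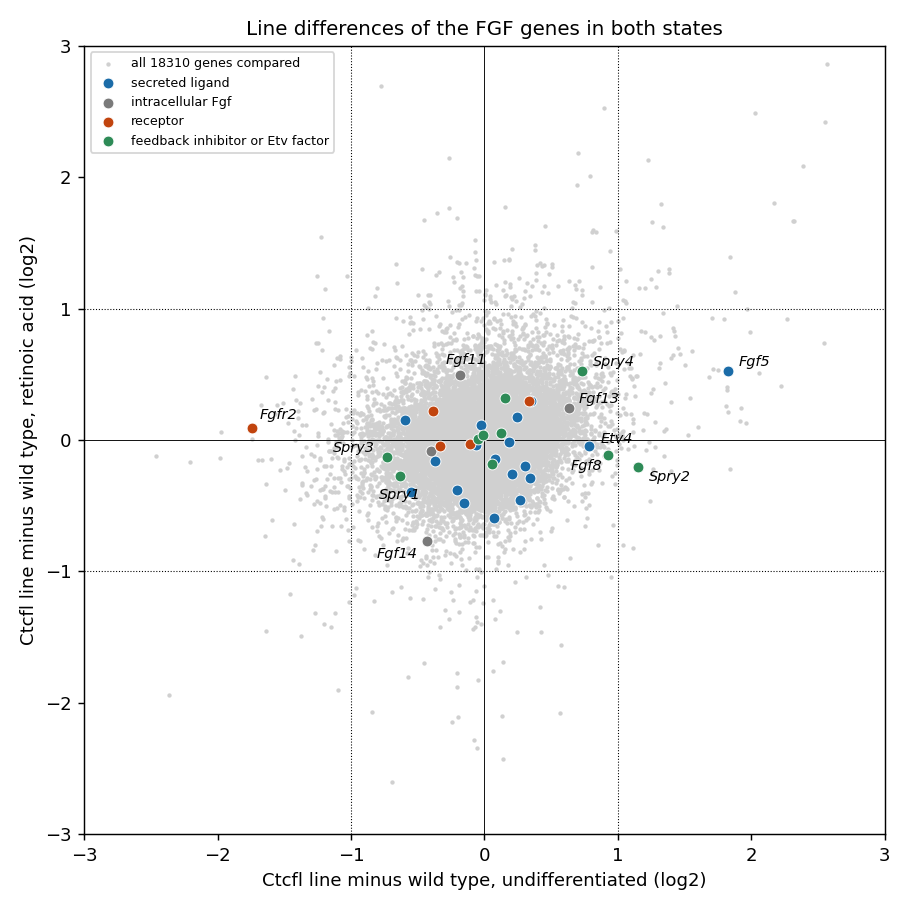
Ctcfl line minus wild-type signal (log2) in undifferentiated cells (x axis) and in retinoic acid (y axis) for the 37 FGF genes, coloured by role, over all 18310 genes compared in grey; dotted lines mark 2-fold and 5 genes lie beyond the axes. Fgf5 at 1.83, Spry2 at 1.15 and Fgfr2 at -1.74 lie past 2-fold along the x axis, and no member does along the y axis.

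The difference of the responses, the retinoic acid difference of the Ctcfl line minus that of wild type, was at least 2-fold in 4 of 37 members (10.8%, where 2.65% of all genes were). Fgfr2 was higher by log2 1.83. Spry2, Fgf5 and Etv4 were lower, at log2 -1.35, -1.30 and -1.04, and Fgf8 followed at -0.83. In Spry2, Fgf5, Etv4 and Fgf8 the undifferentiated Ctcfl line had the highest signal of the 4 arrays, and in Fgfr2 the lowest. With 1 array per condition this difference has no test. By contrast, the members with the smallest adjusted p for retinoic acid responded much alike in both lines: the difference of responses was log2 -0.21 for Spry4, -0.05 for Fgf15, 0.21 for Fgf4, 0.17 for Etv5 and 0.05 for Spred3, which the fit favours since it takes this difference as its error. Between probe sets of a gene the SD of this measure was log2 0.32.

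Other genes of the pathway were read from lists that exclude the members, and their counts stand beside 4.21% of all 18310 genes that rose and 2.44% that fell. The medians of all genes were log2 -0.04 in wild-type and -0.05 in Ctcfl-line cells. Among 25 measured coreceptors, heparan sulfate enzymes and proteoglycans, 4 rose, 1 fell and 20 did not pass, with medians of log2 0.31 in wild-type and 0.15 in Ctcfl-line cells. Klb, the coreceptor for the hormone-like FGFs, read 6.4 and 6.69 undifferentiated and 9.10 and 9.13 in retinoic acid, and rose 5.91-fold (adjusted p = 0.000799 in limma), from signals below the background guide, so that its fold is not exact. Flrt3, a membrane protein that binds FGF receptors, rose 7.43-fold (adjusted p = 0.000529), and Sulf2, which trims sulfate from heparan sulfate, rose 3.11-fold (adjusted p = 0.00278). The others past the test, named after their values were seen, were the glypican Gpc3, which rose 1.68-fold, and the syndecan Sdc4, which fell 2.46-fold (adjusted p = 0.042 and 0.00676). Flrt2 read 9.16 in wild-type cells in retinoic acid and 6.58 to 6.73 on the other 3 arrays. Hs6st2, a heparan sulfate sulfotransferase, was higher by log2 1.46 in the undifferentiated Ctcfl line and did not pass for the line (adjusted p = 0.278).

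In the relay from receptor to ERK, 3 of 16 measured genes rose, 0 fell and 13 did not pass. The adaptor Gab1 rose 2.28-fold (adjusted p = 0.0133 in limma), the kinase gene Rps6ka3 2.60-fold (adjusted p = 0.0171) and the Ras exchange factor Sos1 1.66-fold (adjusted p = 0.0456). Of 14 other brakes of the pathway, 2 rose and 0 fell. Both encode phosphatases that act on ERK and related kinases: Dusp9 rose 4.15-fold (adjusted p = 0.00126) and Dusp5 2.29-fold (adjusted p = 0.0194). Their relative Dusp4 differed in opposite directions, with signals of 10.59 and 9.26 in the wild type and 9.73 and 9.95 in the Ctcfl line. Dusp9 and Dusp5 thus rose where Spry4, Spred3, Etv4 and Etv5 fell.

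Among 14 measured transcription factors and other genes downstream of ERK, 2 rose, 1 fell and 11 did not pass. The Jun gene of the AP-1 factor rose 3.47-fold (adjusted p = 0.00265 in limma) and Phlda1 4.68-fold (adjusted p = 0.00949), whereas Egr2 fell 2.00-fold (adjusted p = 0.0154). Ier3, an immediate early gene, differed by log2 -1.09 in wild-type and -0.15 in Ctcfl-line cells and did not pass. Ccnd1, the cyclin of the G1 phase, was higher by log2 1.82 in the undifferentiated Ctcfl line (11.34 against 9.52) and read 9.42 and 9.82 in retinoic acid. Of these 4 lists, 0 genes passed for the line.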

How the data were processed

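RNA of 4 P19 cultures was hybridised to Affymetrix arrays, 1 for each condition, and this number bounds the precision. Per the labels and the submitters' processing notes, the deposited log2 signals were made by the authors with RMA (background correction, normalization between arrays, probe set summary) in Affymetrix Expression Console. Transcriptome Analysis Console is also named. Versions and the genome build are not given in the sources used here. Of 41345 probe sets, 23521 carried a single symbol in the platform annotation, 1814 carried several and 16010 were unlisted. Each gene was read from whichever of its single-symbol probe sets had the highest mean, and genes whose highest signal was below log2 6 were left out, which kept 18310 of 22180. Differences were counted at 2-fold. Averaged effects of treatment and line were estimated with limma 3.58.1 in R 4.3.3 (lmFit, eBayes, two-sided), with 1 residual and 5.49 prior degrees of freedom, Benjamini-Hochberg adjustment over all genes compared and a threshold of 0.05. The code of the fit was tested on simulated data, which does not bear on the spread of these arrays. All members were eligible to be named. From each pathway list, up to 5 genes were named that were called or 2-fold apart, largest difference before smaller ones. Markers were named from a fixed set, of which only some appear here. Other names are said to be chosen after their values were seen. Members, lists and tests were chosen with earlier results of these data known. Alternatives were other filters, quantile normalization, the mean of probe sets, a 3-fold threshold and a trended variance prior.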

Additional observations from a re-analysis of the deposited data

Results flagged for a closer look

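Without replicates, a gene was singled out where the lines or the states differed in opposite directions, each by more than the SD between probe sets of a gene. In 3 members this was so, and the differences were not tested, since this SD leaves out the variation between cultures and between arrays. The rule was applied to the members only, so no share of all genes stands beside this count. With retinoic acid Fgf7, a ligand of mesenchyme, was at log2 -0.39 in wild-type and 0.36 in Ctcfl-line cells. Between the lines, Fgf3 was at log2 0.27 undifferentiated and -0.46 in retinoic acid, and Fgf16 at 0.34 and -0.29. Fgf7 and Fgf16 did not exceed the olfactory receptor 95th percentile on any array.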

How the results depend on the processing

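No paired analysis was possible because each condition had 1 array and the labels give no replicate numbers; arrays could not be left out for the same reason. The filters and the trended prior do not alter the effects, so the direction of the 7 calls for retinoic acid could not change with them. The direction held with quantile normalization. It also held for Fgf15 and Etv5 with the mean of probe sets, which leaves the other called genes as they were. For the line, 0 members were called under each of the 5 alternatives of the limma fit. The calls numbered 5 without the filter, 7 with a filter at log2 7 (29 members compared), 8 with quantile normalization, and 6 each with the mean of probe sets and the trended variance prior. Members called higher became 0 without the filter, with the mean of probe sets and with the trended prior. With a 3-fold threshold, 2 members were apart for retinoic acid in wild-type cells (2 lower) and 5 in the Ctcfl line (1 higher, 4 lower), 2 were apart in the undifferentiated line comparison (1 higher, 1 lower), and 1 remained for the difference of responses, with 0 lower. Effects near 0 that did not pass changed sign: Spred3 for the line with quantile normalization (log2 -0.043) and, with the mean of probe sets, Dusp6 for retinoic acid (0.095) and for the line (0.0076) and Fgf10 for the line (-0.0088). The mean of probe sets also made the retinoic acid differences of Fgf15 (-1.15 and -1.13) and, in wild-type cells, of Etv5 (-1.06) smaller, since their second probe sets gave smaller differences. Quantile normalization moved the median of all genes by under log2 0.05 in each comparison. Signal limits the 11 members at or near the olfactory receptor level.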
